A study of Homo sapiens with 6 samples.

Results

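Transcripts of 10 immediate early genes were followed in HCC38 cells after silencing of CIP2A. They are FOS, FOSB, FOSL1 and FOSL2 of the FOS family, JUN, JUNB and JUND of the JUN family, the zinc finger genes EGR1 and EGR3, and IER3. The members were taken by gene symbol from a table of 26485 genes, and 9 of the 10 were among the 13562 genes that passed the filter on low counts, EGR3 being the exception. HCC38 is a human cell line derived from a ductal carcinoma of the breast and is labelled triple negative and basal-like. The study asked how RNA differs when CIP2A, an inhibitor of the phosphatase PP2A, is lowered by siRNA. All cells were the same line in the same medium, and there was 1 library for each of 6 treatments. The control group held a mock, which 1 label gives as transfection reagent alone and the design text as not transfected, and 2 non-targeting siRNAs named SCR#2 and SCR#3. In the silenced group were siCIP2A#1, siCIP2A#2 and siCIP2A#3, each a different siRNA to CIP2A delivered with Oligofectamine. The 3 libraries of each group are therefore different treatments, and no label states that libraries were separate cultures. P-values therefore measure only how far these libraries spread. The labels used here give no time of harvest after transfection and no serum stimulation.

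Immediate early genes are transcribed within minutes of a growth factor, serum or stress signal from factors that already sit at their promoters, and their transcripts decay quickly. FOS and JUN proteins pair through leucine zippers to form AP-1, which binds DNA and switches on later genes of growth, invasion and wound repair. EGR proteins bind GC-rich sites through zinc fingers, and IER3 encodes a small protein that modulates ERK signalling and survival. In basal-like breast cancer cells FOSL1, which encodes FRA-1, is known as a prominent member of AP-1 and as a transcript that persists under lasting ERK activity. PP2A can remove phosphates from several kinases and factors of these pathways.

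The stretches in front of FOSB, EGR1 and FOS are printed because these tested members spread most between libraries and because short motifs there are known to receive ERK and cAMP signals. The genes span chr14:75278774-75282230 (FOS), chr19:45467995-45475179 (FOSB) and chr5:138465490-138469315 (EGR1), all on the plus strand of GRCh38. Each stretch is the plus strand of GRCh38.p14 from the RefSeq promoter table, 5′ to 3′, and ends before the first annotated exon. FOS covers chr14:75278578-75278773, FOSB chr19:45467746-45467994 and EGR1 chr5:138465229-138465478. Capitals mark TGACG or its reverse complement CGTCA, the core letters of a cAMP response element, the CArG box bound by SRF, and TATAAA.
FOS: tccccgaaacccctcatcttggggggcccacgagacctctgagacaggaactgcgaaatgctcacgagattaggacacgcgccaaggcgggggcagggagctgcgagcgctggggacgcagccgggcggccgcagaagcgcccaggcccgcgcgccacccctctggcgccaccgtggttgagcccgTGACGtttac
FOSB: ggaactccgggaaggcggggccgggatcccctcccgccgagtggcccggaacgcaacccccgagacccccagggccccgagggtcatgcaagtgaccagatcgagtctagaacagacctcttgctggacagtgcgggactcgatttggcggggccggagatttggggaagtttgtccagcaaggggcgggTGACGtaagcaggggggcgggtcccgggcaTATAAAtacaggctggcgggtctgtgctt
EGR1: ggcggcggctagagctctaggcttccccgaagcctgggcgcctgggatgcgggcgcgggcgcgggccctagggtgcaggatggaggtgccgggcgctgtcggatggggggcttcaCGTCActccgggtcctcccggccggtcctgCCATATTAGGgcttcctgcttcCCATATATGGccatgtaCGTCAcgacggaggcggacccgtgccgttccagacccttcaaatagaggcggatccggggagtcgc

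The table held 7 of the members, and the 250 bases upstream of the start of each were searched on both strands. TGACG was found in all 7, beside 21.2% of 35116 promoters in the table. GENCODE 29 places the whole JUN window inside an annotated JUN exon, so the JUN match is in sequence annotated as transcribed. The windows of FOS, FOSB and FOSL2 also reached an annotated exon of the gene itself, after 196, 249 and 194 bases. Distances are counted from the start in the RefSeq table. For FOS that start lies inside the GENCODE span given above, whose first exon begins after 196 bases of the window. TGACG lay 64 bases upstream of the RefSeq start in FOS, near the end of the printed stretch, and 60 bases upstream in FOSB. Its reverse complement lay 135 and 66 bases upstream in EGR1. Within these 250 bases CArG boxes were found in EGR1 alone among the 7, as CCATATTAGG 105 bases and CCATATATGG 83 bases upstream, beside 1.16% of all promoters. Sequence farther upstream was not searched, so a CArG box there would be missed in the other members. TATAAA was found in FOS, FOSB and JUNB (10.7% of promoters). In FOS it lay 33 bases upstream of the RefSeq start, past the printed stretch and past the start of an annotated FOS exon. The palindrome TGACGTCA, which contains TGACG, was found only in JUND (1.65% of promoters), and GCGNGGGCG, an EGR site, only in EGR1 (8.41%). TGANTCA, the AP-1 site, was in none of the 7 (6.57%). These are matches of letters in a window and were not set against any binding data.

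Total counts ran from 13995187 in the mock to 18161451 with siCIP2A#1. Levels are given as CPM, counts scaled to the library size after TMM. The floor of 3 counts was worth 0.162 to 0.218 CPM. CIP2A itself stood at 98.9, 99.8 and 103 CPM in the mock, SCR#2 and SCR#3 and at 16.3, 45.8 and 19.3 CPM with siCIP2A#1, #2 and #3, so all 3 siRNAs lowered their target, siCIP2A#2 the least. Against the controls its log2 difference was -2.62, -1.13 and -2.38 for siRNAs #1, #2 and #3 (edgeR adjusted p = 2.41e-04, 0.0165 and 4.68e-04). Of the line's markers KRT8, KRT18, EGFR and VIM were high in every library. ESR1 and PGR were at most 0.35 CPM, and the basal keratins KRT5, KRT14 and KRT17 were at most 0.07 CPM. ERBB2, listed with ESR1 and PGR for its absence in a triple-negative line, stood at 48.3 to 74.4 CPM. EGFR stood at 73.0 to 84.4 CPM. The epithelial genes EPCAM (0.437 to 0.747 CPM) and CDH1 (0.146 to 1.22 CPM) were low too. The basal keratins were thus near 0 in a line labelled basal-like. Among markers of other cells, PTPRC, CD3D, MS4A1 and CDH5 were at 0 in all 6 libraries. The summed leukocyte list was at most 0.475 CPM. The summed endothelium list, of which 3 of 4 genes were tested, ran from 7.50 to 10.8 CPM in controls. With CIP2A siRNA it ran from 7.13 to 13.6 CPM. The summed fibroblast list ran from 6.52 to 7.72 CPM in controls and from 6.13 to 18.2 CPM with CIP2A siRNA. Both the endothelium and the fibroblast sums were highest with siCIP2A#1. In that library COL1A1 stood at 14.4 CPM, whereas COL1A2 (0.866 CPM) and DCN (0.379 CPM) lay within their control ranges. Of the 5 fibroblast genes 3 were tested. All 3 were above 0 with siCIP2A#1 against the controls, and edgeR called COL1A1 alone, beside 0.118% of all genes.

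**Figure D1:**
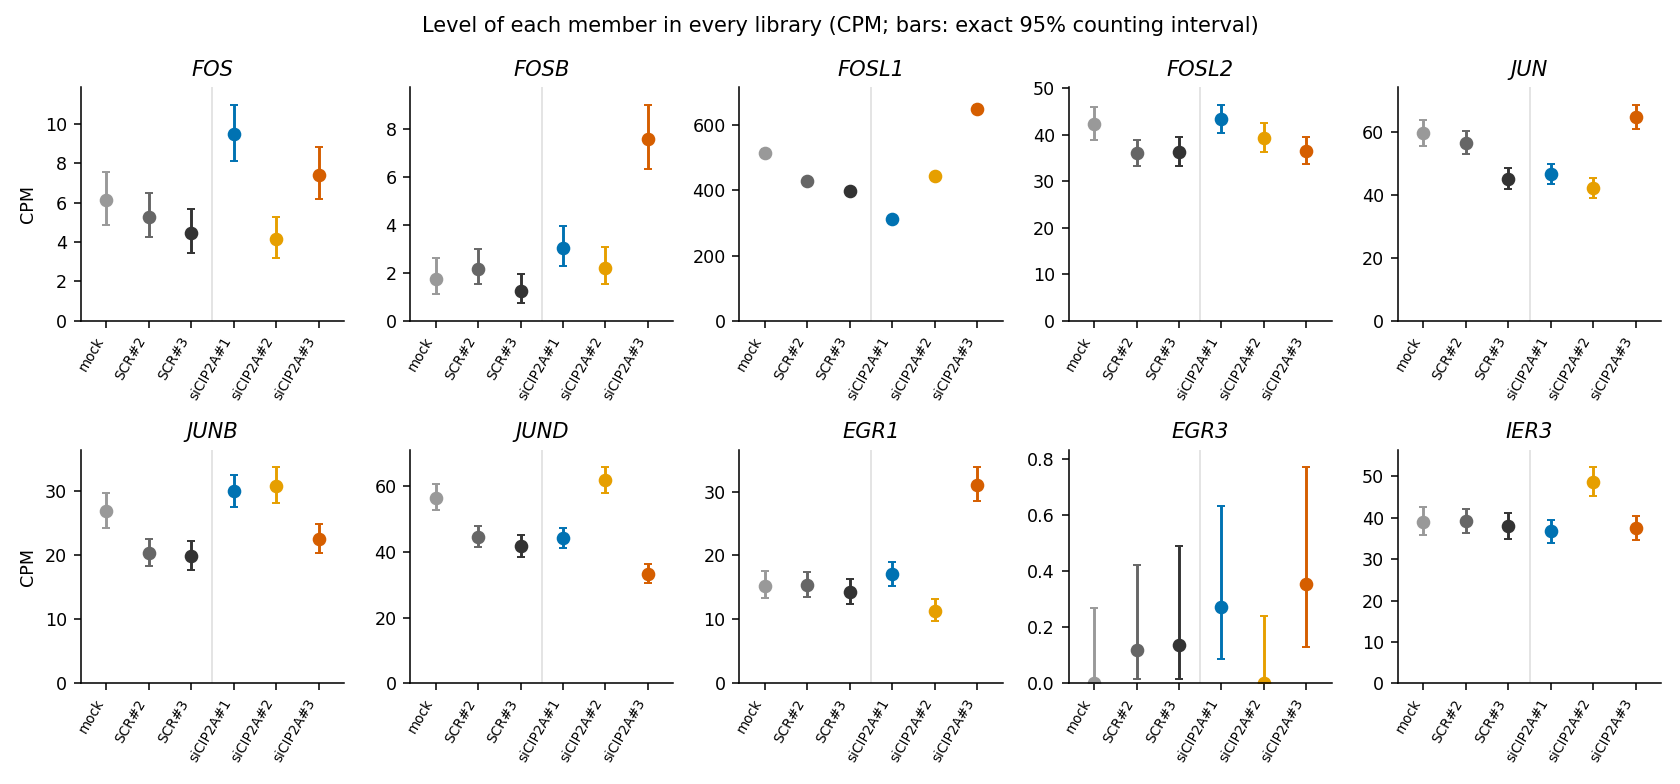
CPM of each of the 10 members in the mock, SCR#2, SCR#3 and the 3 CIP2A siRNA libraries, 1 point per library. FOSL1 lay between 311 and 651 CPM and far above the rest, while EGR3 was at 0.353 CPM or below.

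FOSL1, on the minus strand of GRCh38 at chr11:65892049-65900573, was the most abundant member per length. Dividing CPM by the exon length of each gene gave control means of 243 ± 33.2 CPM per kb (SD, n = 3) for FOSL1, 28.5 ± 0.496 for IER3, 25.6 ± 4.23 for JUND, 15.2 ± 2.16 for JUN, 12.3 ± 2.14 for JUNB, 5.63 ± 0.528 for FOSL2, 4.78 ± 0.187 for EGR1, 1.80 ± 0.278 for FOS and 0.308 ± 0.0850 for FOSB. In this order the control libraries of IER3 and JUND overlapped, as did those of JUN and JUNB, and the other neighbours did not overlap. EGR3, an EGR gene known for its roles in muscle spindles and lymphocytes, was counted 0, 2 and 2 times in the mock, SCR#2 and SCR#3 and 5, 0 and 6 times with siCIP2A#1, #2 and #3. Its level was thus near or below the floor in most libraries, and for the libraries with no read the floor of 3 counts was 0.218 CPM in the mock and 0.194 CPM with siCIP2A#2. Their exact two-sided 95% intervals reached 0.269 and 0.238 CPM. The lengths are unions of GENCODE 29 exons, which need not be the annotation behind the counts.

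Within the FOS family FOSL1 made up 97.0%, 96.9% and 96.8% of the summed CPM per kb in the mock, SCR#2 and SCR#3. With siCIP2A#1, #2 and #3 it made up 94.3%, 96.9% and 97.4%. FOS, the classic serum-induced member, made up 0.683% to 0.746% in controls and 1.80%, 0.566% and 0.696% with siCIP2A#1, #2 and #3. The family's make-up was therefore almost the same in the controls and departed from it most with siCIP2A#1, where FOSL1 was low and FOS high. The family's sum was 289, 240 and 223 CPM per kb in the mock, SCR#2 and SCR#3 and 179, 248 and 363 with siCIP2A#1, #2 and #3, so that the siRNA libraries lay on both sides of the controls. The group means were 251 ± 34.0 and 264 ± 92.9 CPM per kb (SD, n = 3 each, exact permutation p = 0.80, two-sided), a gap smaller than the spread within either group. The smallest p that 3 libraries against 3 allow is 0.10.

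The JUN family, with JUN at chr1:58780788-58784327, JUNB at chr19:12791496-12793315 and JUND at chr19:18279760-18281622, was shared more evenly. JUND, a member known for steady expression, made up 49.0%, 46.8% and 48.6% in the mock, SCR#2 and SCR#3 and 44.5%, 53.5% and 36.9% with siCIP2A#1, #2 and #3. JUN, the strong activator, made up 27.2%, 31.3% and 27.7% in the controls and 24.7%, 19.2% and 37.7% with the 3 CIP2A siRNAs. JUNB, which can restrain JUN, made up 23.8%, 21.9% and 23.7% in the controls and 30.9%, 27.3% and 25.5% with siCIP2A#1, #2 and #3. The order of JUN and JUND thus reversed with siCIP2A#3, where JUN had the larger share, whereas the JUNB share was above every control with each siRNA. With siCIP2A#3 the level of JUNB itself was 1.01 times its control mean. JUND was there 0.70 times and JUN 1.2 times the control mean. The JUNB share averaged 23.1% ± 1.09 in controls and 27.9% ± 2.75 with CIP2A siRNA (SD, n = 3 each, exact permutation p = 0.10, two-sided, the smallest that this design allows). Over the 7 shares compared in this way its Benjamini-Hochberg adjusted permutation p was 0.70.

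**Figure D2:**
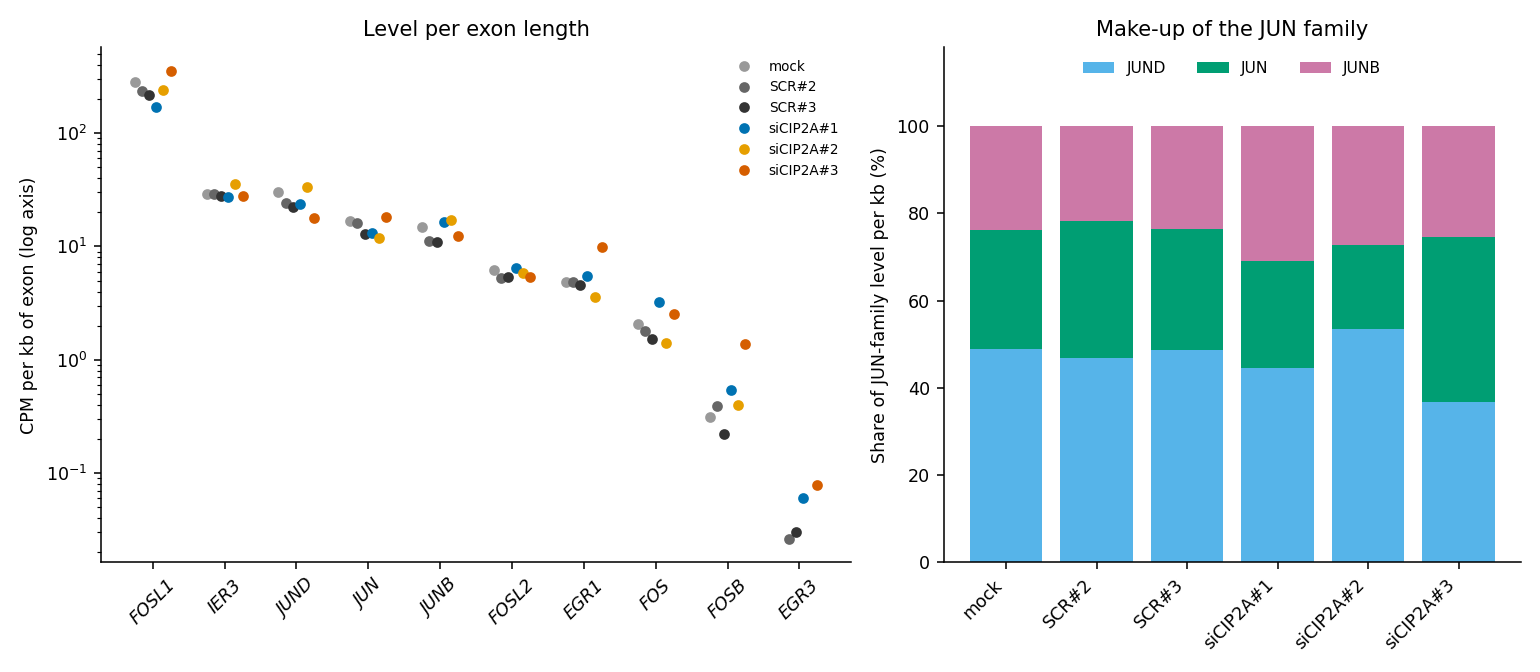
CPM per kb of exon of each member in each library on a log axis (left). The right panel gives the share in percent of JUN, JUNB and JUND in the summed CPM per kb of the JUN family, with 1 stacked bar per library. The JUNB share is 21.9% to 23.8% in controls and 25.5% to 30.9% with CIP2A siRNA. In the FOS family (FOS, FOSB, FOSL1, FOSL2), whose shares are not drawn, FOSL1 makes up 94.3% to 97.4%.

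The first comparison asked what the 3 CIP2A siRNAs did in common. With all 3 set against all 3 controls, no member was called at an edgeR adjusted p under 0.05. That was 0 of 9 members beside 0% of all genes tested, and CIP2A itself, at -1.90 (SE 0.30, edgeR adjusted p = 0.708, DESeq2 adjusted p = 0.154), was not called by this test either. At an unadjusted p under 0.05 there was 1 member, FOSB, beside 2.72% of all genes, and DESeq2 also called no member (0.0221% of all genes). The log2 difference of 7 of the 9 was above 0, beside 49.7% of all genes, and the median over the 9 was 0.08, beside -0.0011 over all genes tested. FOSB was the only member whose groups did not overlap, a pattern that 3.26% of tested genes showed in the same direction.

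FOSB, which encodes a FOS protein with a long and a truncated form, stood at 1.75, 2.16 and 1.22 CPM in the mock, SCR#2 and SCR#3 and at 3.03, 2.20 and 7.60 CPM with siCIP2A#1, #2 and #3. These values rest on 18 to 56 reads except with siCIP2A#3, which had 129. The groups were apart, but by a margin of 2.20 against 2.16 CPM, and most of the difference came from the single library of siCIP2A#3. The group difference was 1.31 on the log2 scale (SE 0.43, edgeR adjusted p = 0.999), the third largest in size of 13562 genes, and it was 0.61 without siCIP2A#3. FOSB overlaps ERCC1, a DNA repair gene on the opposite strand with 292 to 375 CPM, and reads of the pair cannot be told apart if strand was not used in counting. ERCC1 itself differed by 0.13 (SE 0.10) between siCIP2A#3 and the controls.

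EGR1 and FOS had the next largest group differences among the members, at 0.40 (SE 0.28) and 0.42 (SE 0.26), each with an edgeR adjusted p of 0.999. JUNB followed at 0.32 (SE 0.16, edgeR adjusted p = 0.999). The other 5 tested members, FOSL1, FOSL2, JUN, JUND and IER3, lay between -0.07 and 0.08. In all of these the siRNA libraries overlapped the controls. EGR1 turned to -0.08 without siCIP2A#3 and FOSL1 to -0.25 without it, while JUND reached 0.15.

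**Figure D3:**
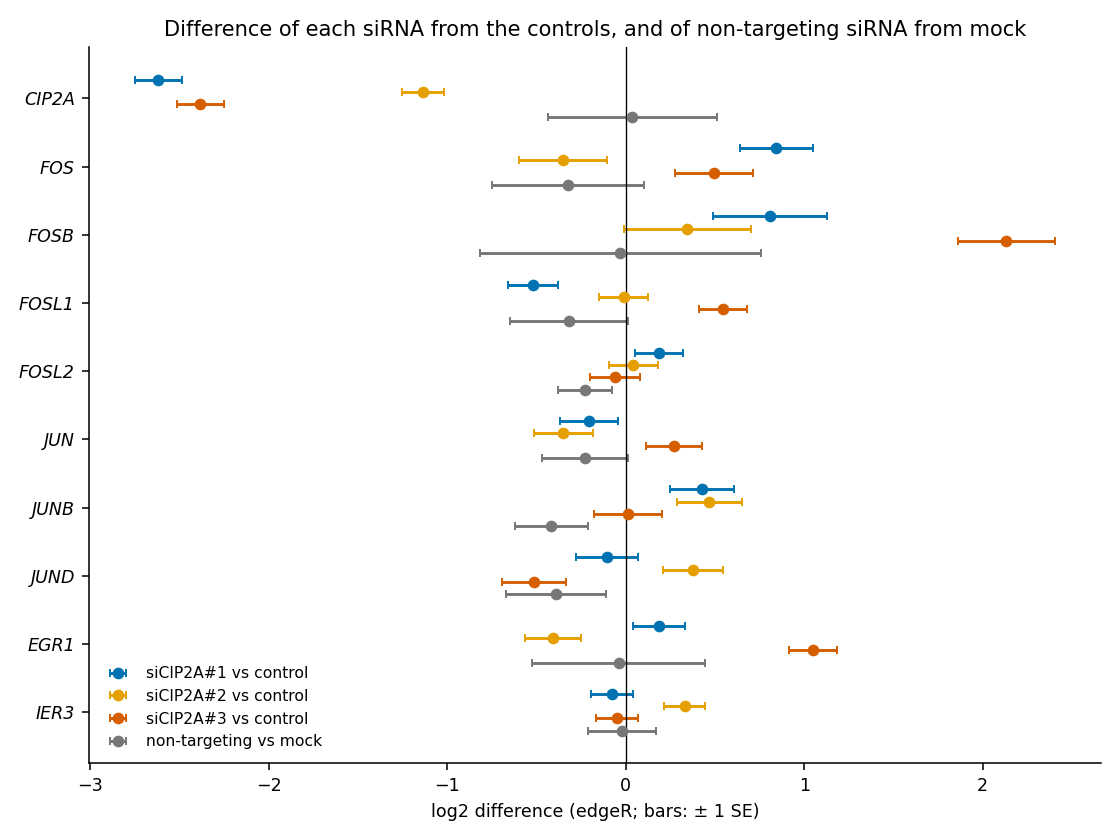
Log2 difference of CIP2A and each tested member from the 3 controls for siCIP2A#1, siCIP2A#2 and siCIP2A#3, and of the non-targeting siRNAs from the mock. Bars are 1 standard error from edgeR. Among the members FOSB at 2.13 and EGR1 at 1.05 with siCIP2A#3 stand apart, and FOSL1 lies at -0.52 with siCIP2A#1 and 0.54 with siCIP2A#3.

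The next comparisons took each siRNA apart. Each is 1 library against the 3 controls, which they share, and the lone library is assumed to vary like the controls. With siCIP2A#3, edgeR called 0 of 9 members beside 0.00737% of all genes, and 4 had an unadjusted p under 0.05 beside 8.22%. DESeq2 called 2 of the 9, EGR1 and FOSB, beside 0.214% of all genes. The median over the 9 members was 0.27, beside -0.0091 over all genes, and 6 were above 0 beside 48% of genes.

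EGR1, the most strongly serum-induced zinc finger gene of its family, stood at 15.3, 15.4 and 14.3 CPM in the mock, SCR#2 and SCR#3 and at 17.0, 11.3 and 31.0 CPM with siCIP2A#1, #2 and #3. The controls were tight, siCIP2A#3 was about 2.07 times their mean, and siCIP2A#2 lay below all 3. The counts were 210, 263 and 211 in the controls and 527 with siCIP2A#3, whose exact 95% interval of 28.5 to 33.8 CPM covers counting error only. The log2 difference of siCIP2A#3 from the controls was 1.05 (SE 0.14, edgeR adjusted p = 0.0722), and DESeq2 gave 1.06 with an adjusted p of 0.0100. By unadjusted p it ranked 7 of 13562 genes. FOSB in the same library was 2.13 above the controls on the log2 scale (SE 0.27, edgeR adjusted p = 0.0722, DESeq2 adjusted p = 0.0431) and ranked 6. Its exact 95% interval was 6.35 to 9.03 CPM, about 4.44 times the control mean at the point estimate. Both calls depend on the fit, since edgeR called both with no filter (adjusted p = 1.53e-04 for FOSB and 9.02e-04 for EGR1) and without any 1 control (2.04e-06 to 3.18e-05 for FOSB and 9.23e-08 to 0.00611 for EGR1), fits that called 0.23% and 0.232% to 9.65% of all genes, but neither with RLE scaling nor with the stricter filter.

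The other members with siCIP2A#3 lay on both sides of the controls. FOSL1 was 0.54 above them (SE 0.13, edgeR adjusted p = 0.413) and FOS 0.49 above (SE 0.22, edgeR adjusted p = 0.607). JUN was 0.27 above, and JUND was 0.51 below (SE 0.18, edgeR adjusted p = 0.558). JUNB, IER3 and FOSL2 were within 0.06 of the controls. None of these 7 was called. Single-siRNA fits without the mock take their spread from SCR#2 and SCR#3 alone, the 2 controls most alike, with 1 residual degree of freedom. Without the mock, which leaves 2 controls, edgeR called 9.65% of all genes, FOSL1 (0.66, adjusted p = 1.37e-09) and JUND (-0.37, adjusted p = 0.00982) among them.

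With siCIP2A#1, edgeR called 0 of 9 members beside 0.118% of all genes, DESeq2 called none beside 0.612% of 12247 genes, and 4 had an unadjusted p under 0.05 in edgeR beside 9.95%. The 4 were FOS, FOSL1, FOSB and JUNB. FOS stood at 6.11, 5.26 and 4.48 CPM in the mock, SCR#2 and SCR#3 and at 9.47, 4.13 and 7.42 CPM with siCIP2A#1, #2 and #3. Here siCIP2A#1 and siCIP2A#3 were above all controls and siCIP2A#2 below them, on 64 to 175 reads per library. The difference with siCIP2A#1 was 0.84 (SE 0.21, edgeR adjusted p = 0.209). FOSB was 0.81 above the controls (SE 0.32, edgeR adjusted p = 0.446) and JUNB 0.43 above (SE 0.18, edgeR adjusted p = 0.486). FOSL1 was 0.52 below them (SE 0.14, edgeR adjusted p = 0.236), the reverse of its direction with siCIP2A#3. FOSL2, EGR1, IER3, JUND and JUN lay between -0.21 and 0.18. Without the mock, edgeR called 13.8% of all genes, among them FOS (0.95, adjusted p = 6.29e-04), JUNB (0.57, adjusted p = 3.22e-04) and FOSL1 (-0.41, adjusted p = 1.82e-05). Without SCR#3 it called 0.617% of all genes, FOSL1 among them (-0.60, adjusted p = 0.0187). In the same library COL1A1, a fibroblast marker, was 1.52 above the controls (SE 0.17, edgeR adjusted p = 0.0270), and its part in these values was not tested.

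With siCIP2A#2, edgeR called 0 of 9 members beside 0.0737% of all genes, DESeq2 called none of the 8 to which it gave an adjusted p (all but FOSB) beside 0.532% of 11458 genes, and 3 had an unadjusted p under 0.05 in edgeR beside 11.6%. The 3 were JUNB at 0.47 (SE 0.18), EGR1 at -0.41 (SE 0.16) and IER3 at 0.33 (SE 0.12), with edgeR adjusted p-values of 0.388, 0.386 and 0.362. IER3 stood at 39.1, 39.1 and 37.9 CPM in the mock, SCR#2 and SCR#3 and at 36.7, 48.6 and 37.4 CPM with siCIP2A#1, #2 and #3. It was the steadiest member among the controls, and siCIP2A#2 alone stood above them. JUNB stood at 26.9, 20.3 and 19.9 CPM in the mock, SCR#2 and SCR#3 and at 30.0, 30.9 and 22.5 CPM with siCIP2A#1, #2 and #3. Its mock value lay among the siRNA libraries and above both other controls. JUND stood at 56.6, 44.5 and 41.7 CPM in the mock, SCR#2 and SCR#3 and at 44.2, 61.8 and 33.3 CPM with siCIP2A#1, #2 and #3, so siCIP2A#2 was the highest and siCIP2A#3 the lowest of the 6. JUNB overlaps HOOK2, a gene of 10.4 to 12.6 CPM. JUND was 0.38 above the controls with siCIP2A#2 (SE 0.17, edgeR adjusted p = 0.437), and FOSB, FOSL2, FOSL1, JUN and FOS lay between -0.35 and 0.35. Without the mock, edgeR called 22.4% of all genes, among them JUNB (0.62, adjusted p = 9.73e-05), JUND (0.52, adjusted p = 3.81e-05), EGR1 (-0.40, adjusted p = 0.0466) and IER3 (0.34, adjusted p = 0.00759).

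FOSL2 stayed close to the range of the controls. FOSL2, which encodes FRA-2, stood at 42.4, 36.0 and 36.3 CPM in the mock, SCR#2 and SCR#3 and at 43.4, 39.3 and 36.6 CPM with siCIP2A#1, #2 and #3. The highest of the 6 values was 1.21 times the lowest. FOSL2 overlaps the antisense gene FLJ31356, and IER3 overlaps IER3-AS1, so both carry the same uncertainty over strand as FOSB. JUN stood at 59.6, 56.6 and 45.1 CPM in the controls and at 46.6, 42.2 and 64.8 CPM with siCIP2A#1, #2 and #3. Its siCIP2A#2 value lay below all controls and its siCIP2A#3 value above them, and the highest value was 1.54 times the lowest. For comparison the same ratio was 6.22 for FOSB, 2.75 for EGR1, 2.29 for FOS, 2.09 for FOSL1, 1.85 for JUND, 1.55 for JUNB and 1.33 for IER3.

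Whether siRNAs to the same target differed was tested in the same fit. Between siCIP2A#1 and siCIP2A#3, edgeR called 1 of 9 members, FOSL1, beside 0.509% of all genes, and it was lower with siCIP2A#1, as were 0.147% of all genes. FOSL1 stood at 515, 428 and 398 CPM in the mock, SCR#2 and SCR#3 and at 311, 443 and 651 CPM with siCIP2A#1, #2 and #3. The siCIP2A#1 library was the lowest of the 6 and siCIP2A#3 the highest, with every control and siCIP2A#2 between them. The counts behind these ends were 5752 and 11056. The difference of siCIP2A#1 from siCIP2A#3 was -1.07 on the log2 scale (SE 0.17, edgeR adjusted p = 0.0430). It was called under all 7 alternatives tried, with values from -1.08 to -1.06 and adjusted p-values (edgeR, and DESeq2 in 1) from 4.43e-13 to 0.0464. CIP2A itself differed by -0.24 between these libraries (SE 0.15, edgeR adjusted p = 0.542), so the pair with the lowest CIP2A held both the lowest and the highest FOSL1. DESeq2 also called FOSL1 and no other member, beside 1.2% of the 11984 genes to which it gave an adjusted p. COL1A1 was higher with siCIP2A#1 than with siCIP2A#3 by 1.56 (SE 0.23, edgeR adjusted p = 0.0414), and its part in the FOSL1 difference was not tested.

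Other members differed between these libraries without being called by edgeR. EGR1 was lower with siCIP2A#1 than with siCIP2A#3 by 0.86 on the log2 scale (adjusted p = 0.083 in edgeR), and FOSB by 1.32 (adjusted p = 0.135 in edgeR). With any 1 control left out, edgeR called 1.55% to 18% of all genes and both of these, at adjusted p-values of 1.15e-05 to 0.0453 for EGR1 and 0.00118 to 0.0230 for FOSB. At an unadjusted p under 0.05 there were 4 of 9 members beside 13.6% of all genes. Between siCIP2A#2 and siCIP2A#3, edgeR called 0 of 9 members beside 0% of all genes, and 7 had an unadjusted p under 0.05 beside 15.6%. EGR1 differed by -1.46 there (edgeR adjusted p = 0.0657, DESeq2 adjusted p = 0.00111) and JUND by 0.89 (edgeR adjusted p = 0.165, DESeq2 adjusted p = 0.0495). DESeq2 called these 2 of the 7 members to which it gave an adjusted p (all but FOS and FOSB) beside 0.923% of 10406 genes. With any 1 control left out, edgeR called 0.784% to 22% of all genes and both of these (adjusted p up to 9.90e-04 for EGR1 and 0.0290 for JUND). FOSB differed by -1.79 (edgeR adjusted p = 0.123) and was likewise called without any 1 control (adjusted p up to 0.00581). Between siCIP2A#1 and siCIP2A#2, edgeR called 0 of 9 members beside 0.0147% of all genes, and 5 had an unadjusted p under 0.05 beside 12.1%. FOS had the widest gap of that pair, 1.19 higher with siCIP2A#1 (edgeR adjusted p = 0.177, and 4.52e-04 to 0.0497 without any 1 control, where 0.734% to 16.7% of all genes were called).

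The controls were compared with each other to show the background of transfection with an siRNA. Against the mock, SCR#2 and SCR#3 gave 0 of 9 members called by edgeR beside 0% of all genes, with none at an unadjusted p under 0.05 beside 6.31%. DESeq2 also called no member beside 0.0221% of all genes. All 9 log2 differences were below 0, whereas 50.4% of all genes were above 0, and their median was -0.23 beside 0.0023 over all genes. They ran from -0.42 for JUNB (SE 0.21) and -0.39 for JUND to -0.03 for FOSB and -0.02 for IER3. The mock is 1 library, and without SCR#3 the values of FOSB, EGR1 and IER3 turned to 0.31, 0.01 and 0.0024. For JUNB and JUND these gaps were larger in size than the differences of 0.32 and -0.04 between the CIP2A siRNA and control groups. The same held for FOSL1 (-0.32 beside 0.07), FOSL2 (-0.23 beside 0.06) and JUN (-0.23 beside -0.07). For FOS, FOSB, EGR1 and IER3 the group difference was the larger in size.

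**Figure D4:**
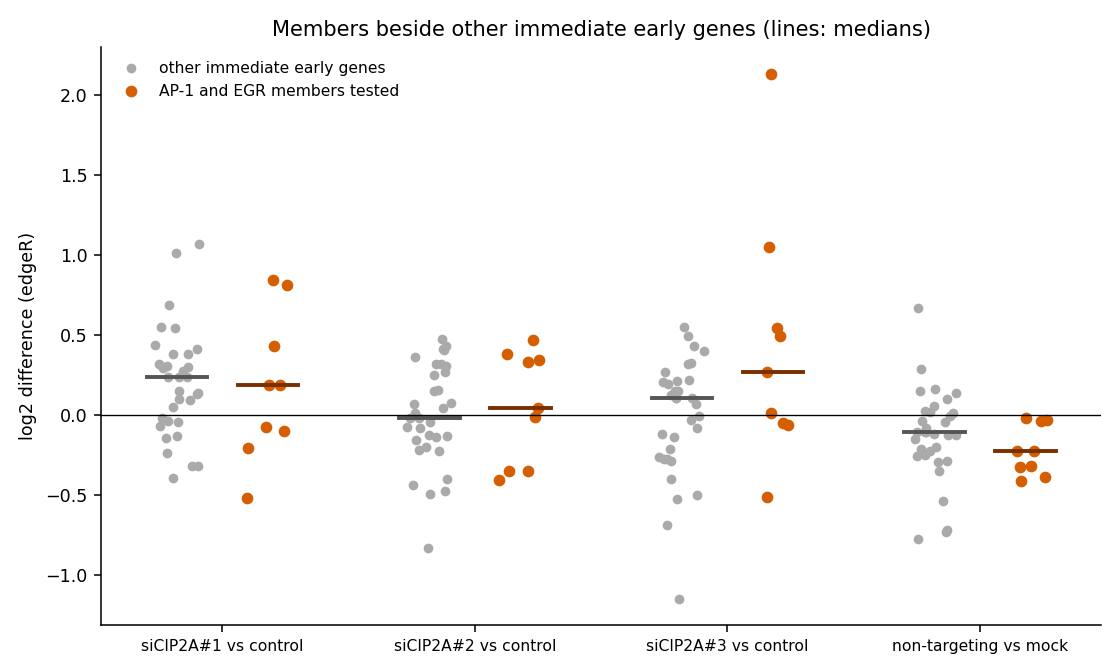
Log2 differences of the 33 tested genes of the list of other immediate early genes beside the 9 tested members, 1 point per gene, with medians as lines. Columns are siCIP2A#1, siCIP2A#2 and siCIP2A#3, each against the 3 controls, and the non-targeting siRNAs against the mock. The list's medians were 0.23, -0.02, 0.10 and -0.11 in this order. For all siRNAs together, not drawn, the median was 0.10.

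Other genes of the response were read from lists chosen with earlier results of these data known. Of 37 other immediate early genes 33 were tested, and edgeR called none in the comparison of all siRNAs with the controls, with 24 of 33 above 0 beside 49.7% of all genes. KLF4, a zinc finger factor, differed by 0.33, NR4A2, an orphan nuclear receptor, by 0.65, ZFP36, which promotes decay of AU-rich transcripts, by 0.18, and CYR61, a matrix-associated signalling protein, by -0.31. Against the mock the non-targeting siRNAs gave 10 of 33 above 0 and a median of -0.11. Between siCIP2A#1 and siCIP2A#3, edgeR called CYR61 (0.82, adjusted p = 0.0476) and PHLDA1 (-0.72, adjusted p = 0.0461), beside 0.509% of all genes. RLE scaling ended both calls (edgeR adjusted p = 0.0517 and 0.0507), and the stricter filter ended that of CYR61 (0.0517). PHLDA1, which encodes a pleckstrin homology protein induced by growth factors, stood at 460, 514 and 497 CPM in the mock, SCR#2 and SCR#3 and at 392, 439 and 646 CPM with siCIP2A#1, #2 and #3. CYR61 stood at 306, 311 and 268 CPM in the controls and at 323, 210 and 183 CPM with the 3 CIP2A siRNAs. Like FOSL1, PHLDA1 was lowest with siCIP2A#1 and highest with siCIP2A#3, and CYR61 had the opposite order of these libraries.

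In the lists of partners, regulators and targets edgeR called no gene when all siRNAs were set against the controls. Of 15 other leucine zipper genes that can pair with AP-1 proteins 12 were tested, with 5 above 0. JDP2, a JUN partner known as a repressor, stood at 11.6, 9.30 and 10.7 CPM in the mock, SCR#2 and SCR#3 and at 11.04, 23.1 and 12.7 CPM with siCIP2A#1, #2 and #3. It was high in siCIP2A#2 alone, where its difference from the controls was 1.13 (SE 0.16, edgeR adjusted p = 0.0845). MAFF differed by -0.41, MAFG by 0.17 and BATF2 by -0.36 between the groups. Of EGR2, EGR4 and the EGR corepressors NAB1 and NAB2, only the last pair was tested, at 0.03 and 0.01, while EGR2 was at most 0.295 CPM and EGR4 at most 0.118 CPM.

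Among 13 upstream transcription factors, all tested, 8 were above 0 between the groups, with MEF2A at 0.12, ELK1 at 0.11, CRTC3 at 0.11 and ELK4 at -0.10. MEF2C, a MADS box factor that can act on the JUN promoter, was the only call of this list in any comparison. It stood at 72.6, 77.8 and 90.9 CPM in the controls and at 112, 64.5 and 52.0 CPM with siCIP2A#1, #2 and #3, a difference of 1.10 between siCIP2A#1 and siCIP2A#3 (SE 0.17, edgeR adjusted p = 0.0430). Of 24 upstream kinases 23 were tested and 9 were above 0 between the groups, with MAPK14 at -0.19, MAP2K3 at -0.20, MAPK9 at -0.29 and MAP2K7 at 0.19. MAPK9, which encodes the JUN kinase JNK2, stood at 84.3, 103 and 97.0 CPM in the mock, SCR#2 and SCR#3 and at 50.9, 80.0 and 102 CPM with siCIP2A#1, #2 and #3. It was low with siCIP2A#1, at -1.005 against siCIP2A#3 (SE 0.17, edgeR adjusted p = 0.0476, and 0.0517 with RLE scaling or the stricter filter) and -0.90 against the controls (edgeR adjusted p = 0.0721).

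Of 11 genes of transcript decay and protein turnover, all tested, 5 were above 0 between the groups, with HNRNPD at -0.21, FBXW7 at 0.18 and ITCH at -0.11. Of 19 AP-1 targets 15 were tested and 11 were above 0, beside 49.7% of all genes. Their median was 0.09 beside -0.0011 over all genes. LAMB3, a laminin chain, differed by 0.16, MMP9, a matrix protease, by 0.58, and PLAUR, the urokinase receptor, by 0.13. All 9 targets of EGR1 were tested and 7 were above 0, beside 49.7% of all genes, with a median of 0.02. VEGFA, the angiogenic growth factor, differed by 0.42 and PDGFB, a platelet-derived growth factor chain, by -0.43, while F3 was at 0.25 and TGFB1 at 0.09. PDGFB stood at 15.0, 14.0 and 13.6 CPM in the mock, SCR#2 and SCR#3 and at 12.1, 13.3 and 6.07 CPM with siCIP2A#1, #2 and #3. It was lowest in the library where EGR1 was highest, with a difference of siCIP2A#3 from the controls of -1.22 (SE 0.18, edgeR adjusted p = 0.125). In that comparison 4 of the 9 EGR1 targets were above 0, beside 48% of all genes. Their median was -0.03, beside -0.0091 over all genes. Of 10 genes of handling and heat stress 5 were above 0 between the groups, with a median of -0.01. HSP90AA1 was at -0.15, HSPA1A at 0.28, HSPD1 at -0.14 and HSPB1 at 0.20. Their summed level was 8565 to 8884 CPM in controls and 7765 to 8684 CPM with CIP2A siRNA, and its part in the results was not tested.

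Each member's pattern over the 6 libraries was compared with those of all 12097 genes whose mean log2 CPM reached 1. The closest gene by Pearson's r of log2 CPM was FZD5 for FOS (0.990), C5orf45 for FOSB (0.995), SLC41A3 for FOSL1 (0.984), HLA-L for FOSL2 (0.998), PRDM10 for JUN (0.992), WFS1 for JUNB (0.996), SEC61B for JUND (0.997), ZNF586 for EGR1 (0.993) and SHMT2 for IER3 (0.994). No member was the closest gene of another. Between members the r was 0.85 for FOSB and EGR1 and -0.84 for JUND and EGR1. With 6 points that share a cell line and a count table, and the best of many genes picked each time, these values describe likeness only.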

How the data were processed

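RNA from 6 HCC38 libraries was measured by sequencing of poly(A) RNA after stranded TruSeq library preparation, per the labels' protocols. The submitters' processing notes name STAR 2.5.4b, Subread 1.5.1, bcl2fastq 2.17 and build hg38. Annotation, strand setting and the rule for reads with several matches were not given in the sources, which leaves overlapping genes uncertain. Each library is a column of raw whole-number counts per gene, as the authors deposited them. Of the symbols 51 had been altered by a spreadsheet, and 50 were restored by Entrez identifier.

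Genes were kept by filterByExpr (minimum count 10) and scaled by TMM. Tests used edgeR 4.0.16 in R 4.3.3 (robust quasi-likelihood, Benjamini-Hochberg over all 13562 genes, call at 0.05). Residual degrees of freedom were 4 for the groups, 3 for non-targeting siRNAs against mock, and 2, from the controls alone, for single siRNAs. Standard errors are the log2 difference divided by the square root of F. Values for likeness are log2 CPM with a prior count of 2, and intervals are exact (Clopper-Pearson, 95%). DESeq2 1.42.0, limma 3.58.1, other scalings and filters, a replicate block and each library left out were alternatives. The edgeR steps were tested on simulated data. Chi-square per degree of freedom between libraries of 1 group was 3.20 to 18.0, so none was a copy. Members and lists were chosen with earlier results of these data known. Text names CIP2A, all members, and per list the called genes and up to 4 with the smallest p between the groups. A gene that this rule names is not reported here. Others, such as ERCC1, HOOK2, EGR2 and EGR4, were named after their values were seen. EGR3 was not searched for promoter motifs, and FOSL1 and IER3 were not analysed there. Coordinates and lengths are GRCh38, from GENCODE 29, and promoters are from RefSeq.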

Additional observations from a re-analysis of the deposited data

Results flagged for a closer look

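Effects of CIP2A siRNAs on the same gene differed between siRNAs in 7 cases among the members, CIP2A, the listed genes and the cell type markers, each by a test of the difference itself (edgeR, adjusted over all genes). Of all genes tested, 0.0147% were called between siCIP2A#1 and siCIP2A#2, 0.509% between siCIP2A#1 and siCIP2A#3, and 0% between siCIP2A#2 and siCIP2A#3. CIP2A differed by -1.49 between siCIP2A#1 and siCIP2A#2 (SE 0.15, edgeR adjusted p = 0.0302), being lower with siCIP2A#1. Between siCIP2A#1 and siCIP2A#3 the differences were -1.07 for FOSL1 (SE 0.17, edgeR adjusted p = 0.0430), 1.56 for COL1A1 (SE 0.23, edgeR adjusted p = 0.0414), 1.10 for MEF2C (SE 0.17, edgeR adjusted p = 0.0430), -0.72 for PHLDA1 (SE 0.12, edgeR adjusted p = 0.0461), 0.82 for CYR61 (SE 0.13, edgeR adjusted p = 0.0476) and -1.005 for MAPK9 (SE 0.17, edgeR adjusted p = 0.0476). Each siRNA had 1 library, so the spread in these tests comes from the 3 controls.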

How the results depend on the processing

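The number of genes called between all siRNAs and the controls was 0, and it was 3 with DESeq2, 3 with no filter, 1 with the replicate block and 0 to 1 with each library left out. For siCIP2A#1 against the controls it was 16, and 75 with DESeq2, 169 with no filter and 85 to 1896 without 1 control. For siCIP2A#2 it was 10, and 61, 109 and 40 to 3088. For siCIP2A#3 it was 1, and 29, 44 and 32 to 1330. For non-targeting siRNAs against mock it was 0, and 3, 5 and 0. Between siCIP2A#1 and siCIP2A#2 it was 2, and 89, 156 and 101 to 2302. Between siCIP2A#1 and siCIP2A#3 it was 69, and 144, 305 and 213 to 2477. Between siCIP2A#2 and siCIP2A#3 it was 0, and 96, 211 and 108 to 3026. For single siRNAs and pairs of siRNAs the highest left-out count is without the mock, which leaves SCR#2 and SCR#3 and a single residual degree of freedom. That pair was the most alike of the controls, at a chi-square per degree of freedom of 3.20. The mock gave 11.3 with SCR#2 and 8.94 with SCR#3. The 1 call between the groups came without siCIP2A#2. Deviations of log2 CPM from the group mean correlated at -0.117, -0.128 and 0.0076 between same-numbered libraries. Between libraries of other numbers the values ran from -0.0733 to 0.163. Every siRNA library is a different treatment, so these values cannot show whether the numbers pair the samples.

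Directions turned for small differences. Between the groups, log2 differences with 1 library left out ran for FOSL1 from -0.246 (without siCIP2A#3) to 0.293, for FOSL2 from -0.0092 (without siCIP2A#1) to 0.138, for JUN from -0.277 to 0.049 (without siCIP2A#2), for JUND from -0.294 to 0.153 (without siCIP2A#3), for EGR1 from -0.0757 (without siCIP2A#3) to 0.678 and for IER3 from -0.0641 (without siCIP2A#2) to 0.151. For NAB1 they ran from -0.0496 (without the mock) to 0.0898, for NAB2 from -0.0821 (without siCIP2A#2) to 0.0807, for ITCH from -0.201 to 0.0018 (without siCIP2A#3), for LAMB3 from -0.0193 (without siCIP2A#1) to 0.272 and for TGFB1 from -0.0162 (without SCR#2) to 0.233. With the mock as a separate level JUN was 0.00855, JUND 0.105 and NAB1 -0.0493. Against the controls with 1 control left out, JUND with siCIP2A#1 ran from -0.195 to 0.0328, FOSL1 with siCIP2A#2 from -0.0895 to 0.102, FOSL2 with siCIP2A#2 from -0.00032 to 0.121 and with siCIP2A#3 from -0.104 to 0.0175, and JUNB with siCIP2A#3 from -0.0634 to 0.162, the upper end of each without the mock. Non-targeting siRNAs against mock ran for FOSB from -0.514 to 0.309, for EGR1 from -0.0945 to 0.010 and for IER3 from -0.0434 to 0.0024, the upper end of each without SCR#3. Of 1121 alternative values of named genes and comparisons, 1022 kept direction and side of the threshold, 65 passed it newly, 5 no longer passed and 29 turned. The 5 were CYR61 and MAPK9 with RLE factors and the stricter filter (edgeR adjusted p up to 0.0517) and PHLDA1 with RLE factors (0.0507), all between siCIP2A#1 and siCIP2A#3. Causes were not tested. Depth limits EGR3, FOSB and FOS most.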

Other observations

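EGR3, left out of the tests by the filter, was called in no comparison by edgeR when no filter was applied. Its group difference was then 1.22 on the log2 scale (SE 0.97, edgeR adjusted p = 0.993), on 15 reads over the 6 libraries.

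The summed level of the 10 members was 763, 647 and 599 CPM in the mock, SCR#2 and SCR#3 and 542, 684 and 892 CPM with siCIP2A#1, #2 and #3, most of which was FOSL1. The summed level of the 37 other immediate early genes was 2464, 2515 and 2375 CPM in the controls and 2632, 2195 and 2542 CPM with the 3 CIP2A siRNAs. The siRNA with the lowest sum of the members, siCIP2A#1, had the highest sum of the other list. ATF3, a stress-induced AP-1 partner, stood at 4.51, 4.33 and 3.66 CPM in the controls and at 4.38, 6.46 and 3.24 CPM with siCIP2A#1, #2 and #3, and its difference from the controls with siCIP2A#2 was 0.63 (SE 0.22, edgeR adjusted p = 0.357). ATF3 was named after its values were seen. COL1A1, a fibroblast marker, stood at 14.4 CPM with siCIP2A#1 and at 4.61 to 6.59 CPM in the other 5 libraries, and edgeR called it with siCIP2A#1 against the controls (adjusted p = 0.0270) and against siCIP2A#3 (adjusted p = 0.0414).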
